A study of Arvicanthis niloticus with 5 samples.

Results

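The Wnt signalling genes of the Nile rat eye were examined in RNA sequencing data of eye tissue from Arvicanthis niloticus, a day-active African rodent. Members were chosen by a rule on gene symbols that uses no level, although it was written with earlier results of these data known: Wnt ligands, frizzled receptors and their co-receptors, secreted inhibitors, R-spondins and their LGR receptors, and the intracellular proteins from dishevelled to the TCF/LEF factors. The rule found 47 genes among the 13982 genes that carried a symbol. The labels give 5 samples (numbers 1, 3, 5, 7 and 9), all of strain WT and genotype Wild Type and all in 1 group, without age or sex, and state that RNA of 5 rats was combined into the library. The expression table holds 1 column of values for the series, so each level below is 1 value from 1 pool. No sample can be set against another and no p-value is given. Ranges in brackets are 95% intervals that cover counting error only.

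Wnt proteins are secreted, lipid-modified ligands that bind frizzled receptors together with the co-receptors LRP5 or LRP6. Binding recruits dishevelled and disables a complex built on Axin and APC that otherwise marks beta-catenin for degradation, and stabilised beta-catenin then acts with TCF/LEF factors on target genes. Secreted frizzled-related proteins, WIF1 and Dickkopf proteins act outside the cell on ligand or co-receptor, with Dkk3 a divergent case described below. R-spondins raise the sensitivity of cells to Wnt by protecting frizzled from turnover. In the eye the pathway is known for patterning of the ciliary margin and lens epithelium, and norrin, a ligand unrelated to Wnt that also signals through frizzled-4, is needed for the growth of retinal vessels.

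Levels are given as FPKM, the number of fragments scaled to transcript kilobases and to 1000000 mapped fragments, summed over the transcripts of a gene. The pool held 64967222 mapped fragments, and the 52 transcripts of the 47 members carried between 15 and 56091 estimated fragments, with a median of 752.5. On a transcript of 1000 nt a count of 0 would allow up to 3 fragments, or 0.0462 FPKM. Markers of the labelled tissue were present: the 6 lens genes checked lay between 194 and 3621 FPKM and the 7 photoreceptor genes between 24.9 and 344 FPKM. The 4 skeletal muscle genes (28.6 to 174 FPKM), the 4 myelin genes (7.89 to 118 FPKM) and the 6 vessel endothelial genes (3.03 to 29.2 FPKM) were present in the same pool. Which tissue supplied the RNA of any Wnt gene was not tested, and in a pool of whole tissue fewer cells of a type and less RNA per cell cannot be told apart.

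The Wnt genes of the eye pool spanned from 0.698 FPKM for Rspo2 to 163 FPKM for Dkk3. Of the 47 genes, 45 (95.7%) reached FPKM 1, against 93.2% of all named genes. The exceptions were the R-spondins Rspo2 and Rspo4. FPKM 5 was reached by 24 members (51.1%, against 59.8% of named genes) and FPKM 10 by 11 members (23.4%, against 34.0%). The median member stood at 5.10 FPKM and the median named gene at 6.50 FPKM, and 17 of the 47 members lay above the latter. FPKM 100 was reached by Dkk3 and Ctnnb1, where the share among named genes was 2.21%, and Sfrp1 followed closely.

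RNA of the family was concentrated in a few genes. Dkk3 held 24.6% of the summed FPKM of the members, Ctnnb1 22.9% and Sfrp1 14.9%, and the other 44 genes together held 37.6% around a median of 4.76 FPKM. Most of the Sfrp1 level came from a 343 nt transcript: over transcripts of at least 500 nt, a setting chosen after the levels were seen, Dkk3 held 27.3%, Ctnnb1 25.4% and Sfrp1 5.99%. By role, the secreted inhibitors held 43.3%, the destruction complex with beta-catenin 26.0%, the Wnt ligands 13.4%, the frizzled receptors 4.17%, the co-receptors with norrin 4.07%, R-spondins with Lgr4 3.47%, dishevelled 2.87% and the TCF/LEF factors 2.18%. All members together made up 0.269% of the FPKM of named genes. In the plot of members by role, Dkk3, Sfrp1 and Ctnnb1 lie far to the right of all other points.

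**Figure D1:**
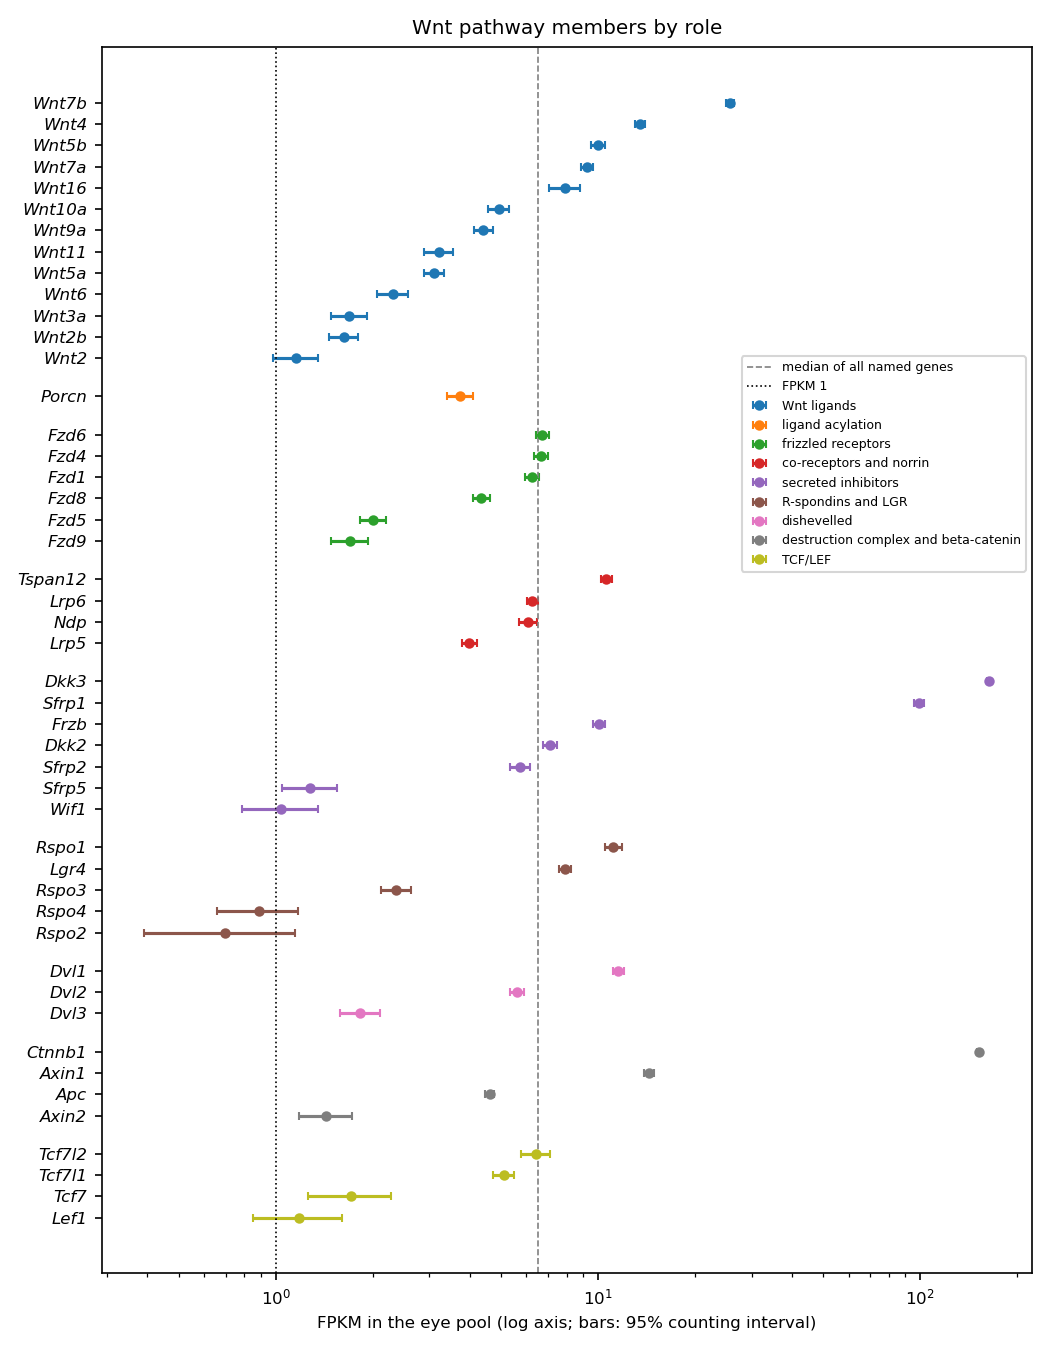
Level of each of the 47 members in the eye pool, in FPKM on a log axis, grouped and coloured by role; points are sums over the transcripts of a gene and bars are 95% counting intervals. Dkk3 (163), Ctnnb1 (152) and Sfrp1 (99.0) stand apart, while Rspo4 and Rspo2 lie below the dotted line at FPKM 1; the dashed line is the median of all named genes, 6.50.

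Of the 19 Wnt ligand genes in the RefSeq annotation of the Nile rat, 13 were carried by a transcript with their symbol. All 13 reached FPKM 1, as did 93.2% of all named genes. Wnt7b was highest at 25.7 FPKM [25.03 to 26.37], above 86.6% of named genes. Wnt4 followed at 13.5 FPKM [13.0 to 14.0], and Wnt5b stood at 10.001 FPKM [9.499 to 10.5]. Wnt7b and Wnt4 are each set apart from the next ligand by more than counting error. Next came Wnt7a at 9.24 FPKM [8.83 to 9.66] and Wnt16 at 7.88 FPKM [7.05 to 8.77], the last on a short transcript of 643 nt. These 5 ligands were the only ones of the 13 above the median of named genes, and Wnt7a was so only as a sum of transcripts (4.73 FPKM with the higher one).

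The remaining 8 ligands formed a graded series at lower levels. Wnt10a stood at 4.92 FPKM, Wnt9a at 4.41, Wnt11 at 3.21, Wnt5a at 3.10 and Wnt6 at 2.30. Wnt3a (1.69 FPKM [1.48 to 1.91]), a ligand widely used to activate beta-catenin signalling in culture, and Wnt2b (1.63 FPKM [1.47 to 1.80]), known from the ciliary margin, did not differ beyond counting error. Wnt2 was the lowest ligand at 1.16 FPKM [0.982 to 1.35]. Porcn, the acyltransferase that attaches the lipid to Wnt proteins before secretion, stood at 3.73 FPKM [3.39 to 4.09].

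Close relatives among the ligands were unequal. Wnt5a and Wnt5b, ligands best known for signalling without beta-catenin, differed 3.23-fold [2.96 to 3.52], with Wnt5b higher. Wnt7b was 2.78-fold [2.64 to 2.93] above Wnt7a when the transcripts of Wnt7a were summed. Wnt7a was carried by a transcript of 3148 nt named from mouse (4.73 FPKM) and one of 3314 nt named from human (4.51 FPKM), both with fractional fragment counts. With the higher of these alone, the log2 ratio of Wnt7a to Wnt7b moved from -1.48 to -2.44, so Wnt7b was the higher gene either way.

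Ligand genes that lie side by side in the genome were also unequal. In the RefSeq annotation of the Nile rat (assembly mArvNil1.pat.X), Wnt10a and Wnt6 are adjacent, with 0 protein-coding genes between them, and so are Wnt9a and Wnt3a. Wnt10a was 2.13-fold above Wnt6, a log2 ratio of 1.09 [0.90 to 1.28]. Wnt9a was 2.62-fold above Wnt3a, a log2 ratio of 1.39 [1.18 to 1.59]. In both cases the neighbours lay below the median of all named genes, 6.50 FPKM. Wnt16 and Tspan12, with 2 protein-coding genes between them, stood at 7.88 and 10.6 FPKM. Lef1 and Dkk2, with 4 between them, were the most unequal of these pairs, with Dkk2 6.01-fold higher.

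The frizzled receptors, the membrane proteins that bind Wnt, lay between 1.70 and 6.72 FPKM. Of the 10 annotated genes, 6 were measured, and all 6 reached FPKM 1 (93.2% of named genes). Fzd6 (6.72 FPKM [6.42 to 7.04]), Fzd4 (6.65 FPKM [6.33 to 6.99]) and Fzd1 (6.26 FPKM [5.95 to 6.58]) were highest. Fzd6 and Fzd4 did not differ beyond counting error, and both lay just above the median of named genes. Fzd8 was at 4.34 FPKM [4.09 to 4.61], Fzd5 at 2.001 FPKM [1.82 to 2.19] and Fzd9 at 1.70 FPKM [1.48 to 1.94]. Fzd5 is known for its part in early eye field formation. Summed, the 6 measured frizzleds reached 27.7 FPKM and the 13 measured ligands 88.7 FPKM, a 3.20-fold [3.11 to 3.30] higher sum for the ligands. Both sums leave out the genes without a named transcript. The class medians went the other way, at 5.30 FPKM for the frizzleds and 4.41 FPKM for the ligands. Without Fzd6 the frizzled median was 4.34 FPKM.

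The norrin receptor complex was measured in full. Norrin (Ndp) binds Fzd4 with the co-receptor Lrp5, and the tetraspanin Tspan12 strengthens this signal. Ndp stood at 6.09 FPKM [5.70 to 6.49], Fzd4 at 6.65 FPKM and Lrp5 at 3.99 FPKM [3.78 to 4.22]. Tspan12 was the highest of the 4 at 10.6 FPKM [10.2 to 11.1]. From the highest to the lowest, Tspan12 was 2.66-fold [2.49 to 2.85] above Lrp5. Set against the receptor, Tspan12 was 1.60-fold [1.497 to 1.70] above Fzd4, Fzd4 1.09-fold [1.01 to 1.19] above Ndp, and Fzd4 1.67-fold [1.55 to 1.79] above Lrp5. Of the 6 endothelial markers in the same pool, Tie1 was at 3.03, Cdh5 at 3.91, Pecam1 at 6.38, Cldn5 at 10.6, Kdr at 12.9 and Plvap at 29.2 FPKM. Lrp6, the co-receptor of Wnt that is broadly expressed, was at 6.26 FPKM [6.02 to 6.50] and 1.57-fold [1.47 to 1.67] above Lrp5.

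Secreted inhibitors, a role set by gene name that includes Dkk3, had the highest summed FPKM of any role, most of it from Dkk3 and Sfrp1. Of 11 annotated genes, 7 were measured, all at FPKM 1 or more (93.2% of named genes). Dkk3, a divergent Dickkopf protein that differs from its relatives in not acting as a plain LRP6 antagonist, stood at 163 FPKM [162 to 164] on 56091 fragments of a single transcript of 5297 nt. It ranked 158 among the 13982 named genes. Dkk2, which binds LRP6, was at 7.11 FPKM [6.77 to 7.46], so Dkk3 was 22.9-fold [21.8 to 24.1] above it.

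Sfrp1, a secreted protein with a frizzled-like domain that binds Wnt, was the third member overall at 99.0 FPKM [95.7 to 102]. It was carried by a 4297 nt transcript named from mouse at 35.8 FPKM and a 343 nt transcript named from human at 63.2 FPKM. If these are pieces of 1 mRNA the sum is too high, and the long transcript alone still placed Sfrp1 above every ligand. Its relatives were lower: Frzb (Sfrp3) at 10.1 FPKM [9.62 to 10.5], Sfrp2 at 5.74 FPKM [5.33 to 6.17] and Sfrp5 at 1.28 FPKM [1.05 to 1.55]. The sum for Sfrp1 exceeded Sfrp2 by 17.3-fold [15.9 to 18.7] and Sfrp5 by 77.4-fold [63.7 to 94.0]; on the log2 scale these are 4.11 and 6.27, and 2.64 and 4.81 without the short transcript. Wif1, which binds Wnt directly, was the lowest inhibitor at 1.04 FPKM [0.784 to 1.36], with FPKM 1 inside its interval.

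The 7 inhibitors summed to 287 FPKM and the 13 ligands to 88.7 FPKM, a log2 ratio of 1.70 [1.66 to 1.73], or 3.24-fold. That direction rests on Dkk3 and Sfrp1. Without both, the other 5 inhibitors lay below the ligands, with a log2 ratio of -1.81 [-1.86 to -1.76]. With the highest gene of each class left out, Dkk3 and Wnt7b, the ratio was 0.98 [0.93 to 1.03]. The medians of the classes were 7.11 FPKM for the inhibitors and 4.41 FPKM for the ligands. The plot of ratios shows all of these settings.

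**Figure D2:**
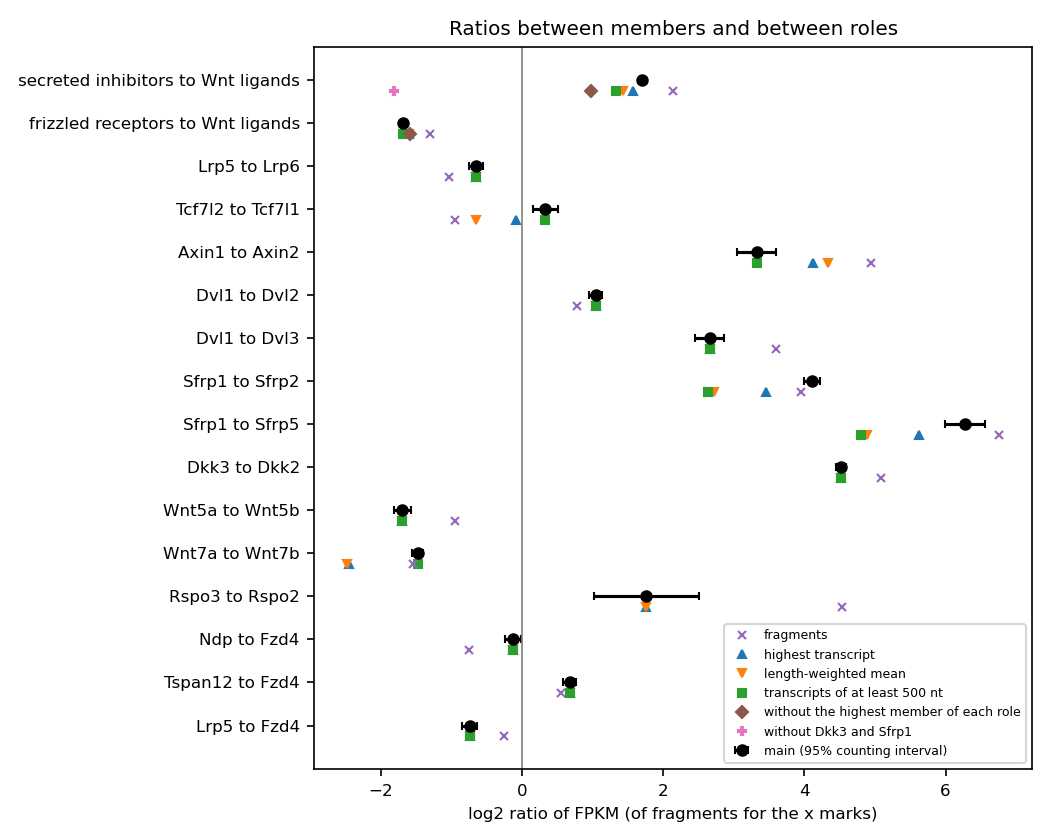
Log2 ratios of FPKM between roles (top 2 lines, sums) and between 14 gene pairs; black points are the values with 95% counting intervals and coloured marks are other ways of counting, with x marks for fragments not divided by length. The inhibitor to ligand ratio crosses 0 without Dkk3 and Sfrp1 (-1.81), and Tcf7l2 to Tcf7l1 crosses 0 under 3 settings; the other 13 pairs and the frizzled to ligand ratio keep their side of 0 under each setting drawn.

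Among the enhancers of Wnt signalling, Rspo1 and the receptor Lgr4 were well above the other R-spondins. Rspo1 stood at 11.2 FPKM [10.5 to 11.9], the sum of transcripts of 1380 and 1376 nt at 4.93 and 6.24 FPKM, named from mouse and from human. Lgr4, a receptor of R-spondins, was at 7.91 FPKM [7.60 to 8.23] on a transcript of 4656 nt. Rspo3 was at 2.36 FPKM [2.12 to 2.62]. Rspo4, known for nail formation, and Rspo2 lay below FPKM 1, at 0.886 [0.656 to 1.17] and 0.698 [0.390 to 1.15], and both intervals reach above it. Rspo2 rested on 15 fragments of a 331 nt transcript, the fewest of any member. Rspo3 was 3.39-fold [2.02 to 5.68] above Rspo2, beyond counting error.

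The cytoplasmic relay was led by Dvl1 and Axin1. Dishevelled proteins link the receptor to the destruction complex. Dvl1 stood at 11.6 FPKM [11.1 to 12.04], 2.06-fold [1.93 to 2.20] above Dvl2 (5.62 FPKM) and 6.32-fold [5.48 to 7.29] above Dvl3 (1.83 FPKM [1.59 to 2.10]). The transcript of Dvl3 was 1707 nt long and those of Dvl1 and Dvl2 were 3284 and 3941 nt.

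Axin1, the scaffold of the destruction complex, was at 14.4 FPKM [13.9 to 14.9], the highest of the scaffold genes. Apc was at 4.61 FPKM [4.46 to 4.76] on the longest transcript of the family, 12154 nt. Axin2, a scaffold that is itself a widely used target gene of beta-catenin, was at 1.44 FPKM [1.18 to 1.73], so Axin1 was 10.02-fold [8.30 to 12.1] above it. The level of Axin2 is a sum of 0.607 and 0.828 FPKM over transcripts of 1243 and 1152 nt, and either transcript alone would have placed it below FPKM 1. The log2 ratio of Axin1 to Axin2, 3.33 with the sum, was 4.12 with the higher transcript and 4.33 with the length-weighted mean.

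Beta-catenin itself (Ctnnb1) was the second member overall. It stood at 152 FPKM [150.3 to 154] on 31905 fragments of 1 transcript, above 98.8% of named genes and at rank 173. Besides its part in Wnt signalling, beta-catenin links cadherins to the actin skeleton at cell junctions, and signalling acts on the stability of the protein rather than on its mRNA.

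The TCF/LEF factors, the DNA-binding partners of beta-catenin, lay between 1.18 and 6.43 FPKM. Tcf7l2 stood at 6.43 FPKM [5.79 to 7.12], Tcf7l1 at 5.10 FPKM [4.73 to 5.49], Tcf7 at 1.71 FPKM [1.26 to 2.27] and Lef1 at 1.18 FPKM [0.853 to 1.60]. None of the 4 lay above the median of named genes, and Tcf7l2 stood close to it. Coverage was thin, with 48 fragments for Tcf7 on 431 nt and 42 for Lef1 on 546 nt. The order of the upper 2 was not settled: Tcf7l2 to Tcf7l1 had a log2 ratio of 0.33 [0.15 to 0.52] with the 2 Tcf7l2 transcripts (891 and 838 nt) summed, -0.082 [-0.28 to 0.12] with the higher one and -0.64 [-0.83 to -0.46] with their length-weighted mean.

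Counting error separated few neighbours in the order of all members. Of the 46 steps from one gene to the next lower one, 12 exceeded the counting interval. These included the first 6, in the order Dkk3, Ctnnb1, Sfrp1, Wnt7b, Axin1, Wnt4 and Dvl1. In the run of Dvl1, Rspo1, Tspan12, Frzb and Wnt5b, from 11.6 to 10.001 FPKM, no gene differed from the next beyond that error. The same held from Lgr4 (7.91 FPKM) through Wnt16, Dkk2, Fzd6, Fzd4, Tcf7l2, Fzd1, Lrp6, Ndp and Sfrp2 to Dvl2 (5.62 FPKM), although genes at the ends of a run can differ. Rspo1 stood in the former run only as a sum of transcripts (6.24 FPKM with the higher one). Tcf7l2 stood in the latter run only as a sum (4.82 FPKM with the higher one). The steps from Wnt5b to Wnt7a and from Wnt7a to Lgr4 were among the 12 only with the Wnt7a transcripts summed (4.73 FPKM with the higher one).

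Sums of a pair of transcripts were needed for 5 members: Sfrp1, Wnt7a, Rspo1, Tcf7l2 and Axin2. Among all named genes, 9.87% had more than 1 transcript. For 4 of these 5, each transcript was named from different species, and both Tcf7l2 transcripts carried the mouse symbol. The remaining 42 members rested on a single named transcript and do not depend on how named transcripts are combined. Only 15454 of the 124439 transcripts carried a symbol. Further transcripts of any member may be in the table without a symbol, so the levels, ratios and shares cover named transcripts only. Of the 52 member transcripts, 18 had fragment counts more than 0.001 from a whole number, including those of Dkk3, Ctnnb1 and Wnt7b, so some of their fragments were shared with other transcripts. The median length of member transcripts was 2315 nt, beside 2156 nt over all transcripts with a symbol, and 3 were shorter than 500 nt.

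**Figure D3:**
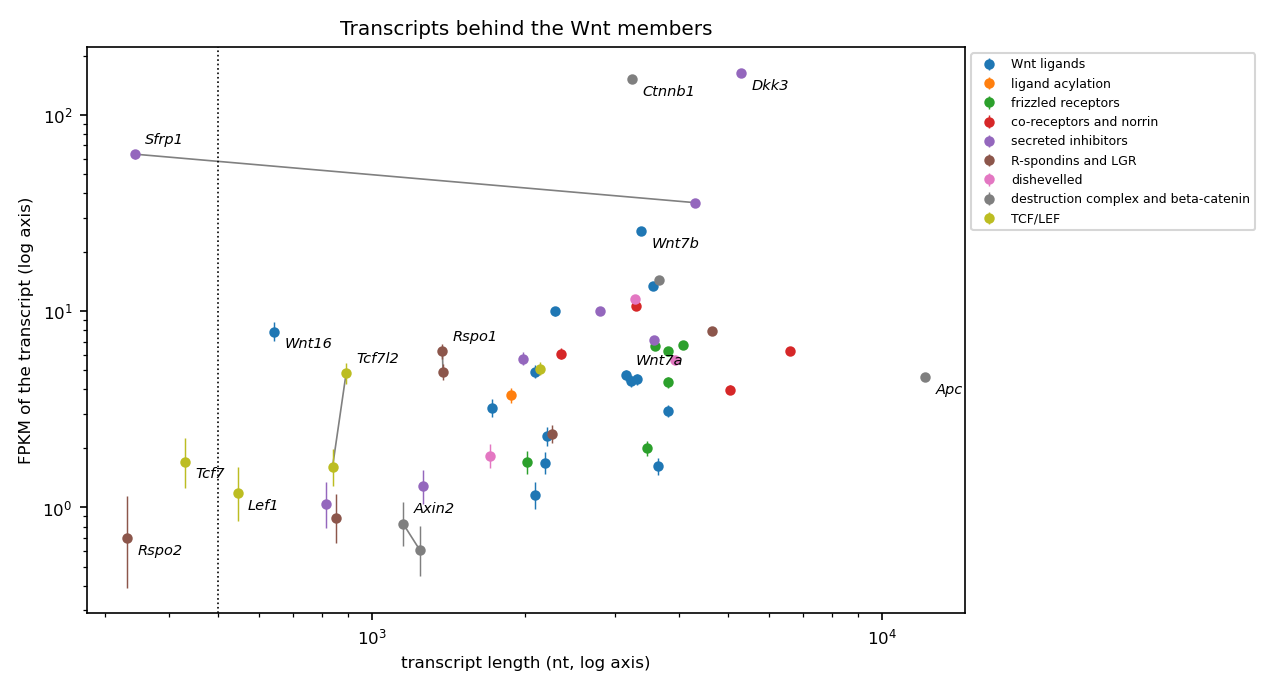
FPKM against length for each of the 52 member transcripts, both on log axes, coloured by role, with 95% counting intervals; grey lines join the transcripts of 1 gene and the dotted line marks 500 nt. Sfrp1 joins a 343 nt and a 4297 nt transcript, and the points of Rspo2 and Tcf7, left of the dotted line, have wide intervals.

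Of the 63 genes in the RefSeq annotation that the name rule would take, 16 were on no transcript with their symbol and were not analysed here. They are Wnt1, Wnt3, Wnt8a, Wnt8b, Wnt9b, Wnt10b, Fzd2, Fzd3, Fzd7, Fzd10, Sfrp4, Dkk1, Dkk4, Dkkl1, Lgr5 and Lgr6. A transcript of these genes may be in the table without a symbol, so nothing can be read about their level. All 47 members had a RefSeq gene of the same symbol. The transcripts of Fzd6, Lgr4 and Tspan12 carried an older synonym in 1 species column (Hfz6, Gpr48 and Tm4sf12).

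As a class, the Wnt genes were compared with other signalling families chosen by name. The 54 measured genes of TGF-beta and BMP signalling had a median of 5.89 FPKM, and 13 of them (24.1%) reached FPKM 10, against 34.0% of all named genes and 23.4% of the Wnt genes. The 44 genes of Notch, FGF and EGF signalling had a median of 3.93 FPKM, and 8 (18.2%) reached FPKM 10. The Wnt median of 5.10 FPKM lay between these. Neither of the other families had a gene at FPKM 100, a level that only 2.21% of named genes reached. Their highest genes stood at 89.3 and 49.0 FPKM. Sfrp1 lay above both as a sum, and below the former with its higher transcript alone (63.2 FPKM, 343 nt). With its 4297 nt transcript alone (35.8 FPKM) it lay below both. These are descriptions of 1 pool without a test.

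**Figure D4:**
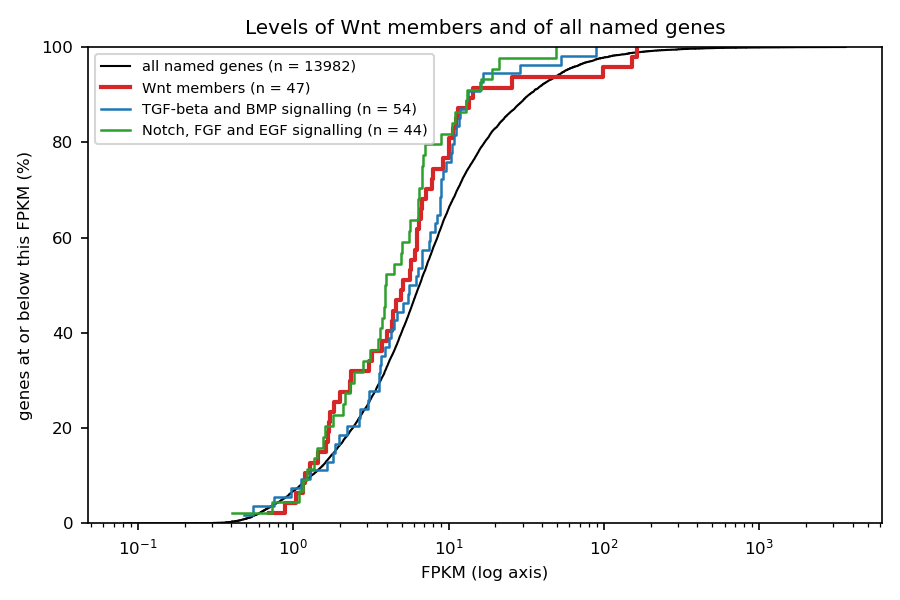
Percent of genes at or below each FPKM (log axis) for the 47 Wnt members, 2 other signalling families and all 13982 named genes. The Wnt curve lies left of the curve of all named genes over the middle of its range (median 5.10 against 6.50), and its last steps, at 99.0, 152 and 163 FPKM, extend beyond both other families, the first of them only as the sum of the Sfrp1 transcripts.

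Other genes of the pathway, outside the name rule, were taken from fixed lists. The counts at FPKM 1 in these lists are to be read against the 93.2% of all named genes that reach it. Wls, the carrier that brings Wnt proteins to the cell surface, stood at 29.8 FPKM [29.2 to 30.4], above every Wnt ligand, and Notum, an enzyme that removes the lipid from Wnt, at 2.28 FPKM. Of 10 measured alternative receptors and co-receptors, 7 reached FPKM 1 (93.2% of named genes). Ryk, a kinase-like Wnt receptor, was highest at 30.6 FPKM [29.8 to 31.4] and thus above each measured frizzled, followed by the glypican Gpc3 at 23.2 FPKM. The receptor tyrosine kinases Ror1 (0.824 FPKM [0.656 to 1.02]), Ror2 (0.793 FPKM [0.598 to 1.03]) and Musk (0.491 FPKM [0.212 to 0.967]) were the 3 lowest genes of this list. The intervals of Ror1 and Ror2 reach above FPKM 1, and Musk rested on 8 fragments of a 251 nt transcript.

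All 11 measured genes of receptor turnover and further inhibition reached FPKM 1 (93.2% of named genes), with a median of 10.3 FPKM. Cst3 (876 FPKM), an abundant secreted protease inhibitor with many other roles, and Serpinf1 (33.5 FPKM) were highest. Whether Cst3 acts on Wnt signalling was not tested. Sost (1.72 FPKM), a ligand of LRP5 and LRP6, was lowest. The ubiquitin ligases Znrf3 and Rnf43, which remove frizzled from the surface and are counteracted by R-spondins, were at 3.48 and 2.62 FPKM. Kremen1, a receptor of Dickkopf proteins, was at 11.1 FPKM.

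Of the 19 measured genes of the destruction complex and its regulators, 18 reached FPKM 1, close to the 93.2% of all named genes, with a median of 8.93 FPKM. The phosphatase subunit Ppp2ca (138 FPKM) and the kinase Csnk1a1 (48.3 FPKM) were highest, and Gsk3b, the kinase that marks beta-catenin, was at 24.9 FPKM. Nkd2 (0.604 FPKM [0.289 to 1.11]) was lowest, on 10 fragments of a 255 nt transcript. The 16 nuclear co-factors, all at FPKM 1 or more, had a median of 6.05 FPKM. Aes (129 FPKM) and Ctbp1 (59.3 FPKM) led, and Pygo1 (2.53 FPKM) was lowest. The genes of beta-catenin-independent signalling had a median of 3.99 FPKM over 20 genes, 19 of them at FPKM 1 or more. The GTPases Rac1 (267 FPKM) and Rhoa (180 FPKM), which serve many pathways, were far above the specific polarity genes, of which Prickle1 reached 11.1 FPKM, Vangl1 4.39 FPKM and Celsr2 3.58 FPKM, and Invs (0.674 FPKM) was lowest.

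Commonly used target genes of the pathway spread over a wide range. All 17 measured genes reached FPKM 1, beside 93.2% of named genes, with a median of 4.51 FPKM. The glucose transporter Slc2a1 (140 FPKM) and the cyclin Ccnd1 (34.8 FPKM) were highest, and both have many other regulators. Nkd1 stood at 6.52 FPKM, close to the median of named genes, Znrf3, Rnf43 and Notum stood at the levels above, and Tcf7, Axin2 and Lef1 were the lowest of the list, down to 1.18 FPKM. Of the genes through which norrin signalling is followed in retinal endothelium, Cldn5 was at 10.6 FPKM, Mfsd2a at 2.99 FPKM and Sox17 at 1.95 FPKM. Plvap, which marks fenestrated vessels and is held down by this signal in retinal vessels, was at 29.2 FPKM [28.3 to 30.1].

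**Figure D5:**
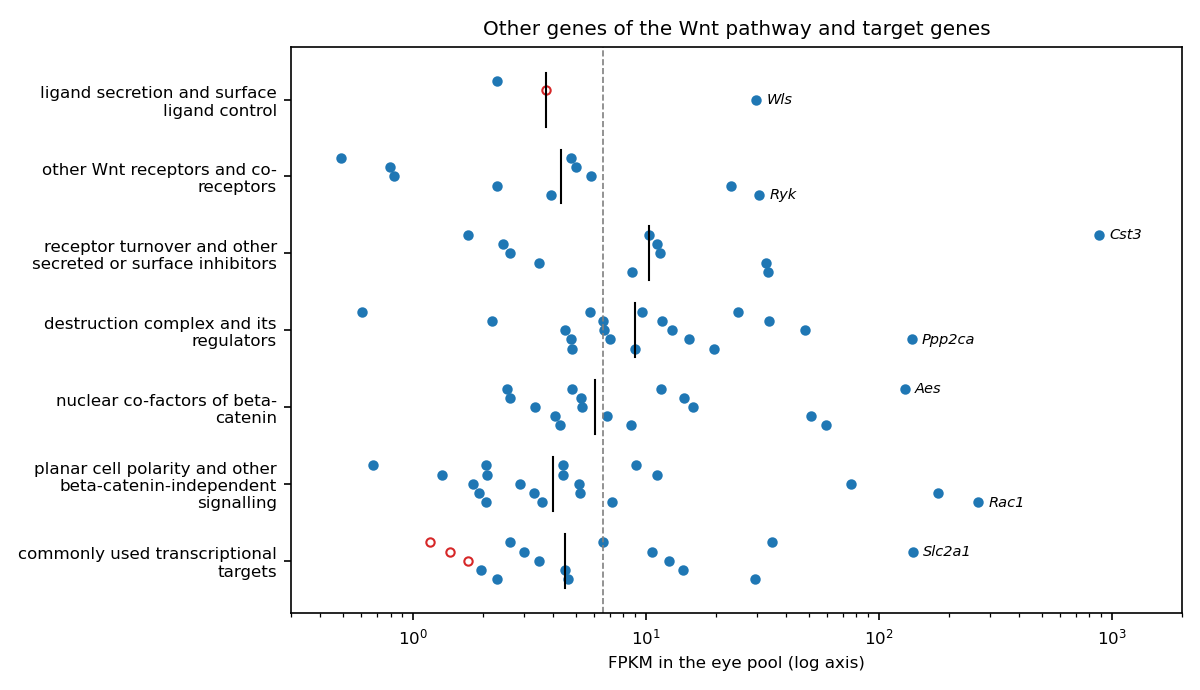
FPKM (log axis) of the measured genes in 7 fixed lists of the Wnt pathway; open red circles are genes of the name rule, black bars are list medians, the dashed line is the median of all named genes (6.50) and the highest gene of each list is named. Axin2, Tcf7 and Lef1 are the 3 open circles at the low end of the target genes.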

How the data were processed

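Per the labels' protocols, RNA of 5 rats was pooled. Per the submitters' processing notes, Bowtie was used; version, build and transcript assembly were not stated in what was used here, and no coordinates are printed. The authors deposited, per the file headers, the FPKM, the estimated fragment count and the length in nt of each of 124439 transcripts. The deposited FPKM equals the estimated count divided by the length and by the 64967222 mapped fragments. Symbols came from the deposited ortholog table, in the order mouse, rat, human (15454 transcripts); Dkk-3 in its mouse column was read as Dkk3. Gene levels are sums of FPKM. Level intervals are Fay-Feuer gamma intervals and ratio intervals delta-method intervals for Poisson counts, at 95%. Their code was checked on simulated Poisson counts drawn separately for each transcript, as the intervals assume. That check cannot speak to counts with fragments shared between transcripts. PCR copies are not independent molecules.

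The members and lists were chosen with earlier results of these data known. All members are named; of each pathway list the 2 highest genes and the lowest are named, and further ones as examples chosen after their values were seen. A planned comparison of transcript with coding length was not run. Tools were SciPy 1.17.1, NumPy 2.4.6 and pandas 2.3.3 under Python 3.11.15, with Matplotlib 3.10.9 for plots.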

Additional observations from a re-analysis of the deposited data

How the results depend on the processing

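Leaving out samples could not be run, since the table has 1 column of values. No paired analysis was possible because there is 1 group and no column per sample. The number of members detected was 45 at FPKM 1, 47 at 0.5, 35 at 2, 24 at 5 and 11 at 10, and between 42 and 44 under the other 5 settings. The median of all members (5.10 FPKM) was 4.62 with a length-weighted mean of transcripts and 5.62 both with transcripts of at least 500 nt and with detected members only. The log2 ratio of inhibitors to ligands (1.70) was 2.14 with fragments in place of FPKM, 1.58 with the highest transcript, 1.43 with the length-weighted mean, 1.34 with transcripts of at least 500 nt, 0.98 without the highest gene of each class and -1.81 without Dkk3 and Sfrp1, the last chosen after seeing the data. The ratio of frizzleds to ligands (-1.68) was -1.30 with fragments, -1.60 both with the highest transcript and with the length-weighted mean, -1.59 without the highest gene of each class, and -2.08 where Fzd6 was lost, either by asking that all symbols agree or by naming in the order human, rat, mouse. Tcf7l2 to Tcf7l1 turned to -0.082 with the highest transcript, -0.64 with the length-weighted mean and -0.95 with fragments. Axin1 to Axin2 moved from 3.33 to between 4.12 and 4.94 with the highest transcript, the length-weighted mean or fragments. Levels of 42 of the 47 members did not depend on how transcripts are combined, by construction. Rescaling to a sum of 1000000 multiplies every level by 0.729. Depth limits Rspo2, Lef1, Tcf7, Rspo4 and Wif1, each on fewer than 60 fragments.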

Other observations

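Beta-catenin also serves at adherens junctions, and its partners there were looked up after its level was seen. Of 9 such genes, 6 carried a symbol, with a median of 10.1 FPKM. N-cadherin (Cdh2) was highest at 24.1 FPKM [23.5 to 24.7], followed by E-cadherin (Cdh1) at 14.9 FPKM [14.4 to 15.5] and vinculin (Vcl) at 12.7 FPKM. The p120 catenin Ctnnd1 was at 6.28 FPKM, its neural relative Ctnnd2 at 7.57 FPKM and the neural alpha-catenin Ctnna2 at 2.59 FPKM. All 6 lay below the 152 FPKM of Ctnnb1, as did 98.8% of all named genes. Genes without a named transcript, such as Ctnna1, were not analysed here.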
